A study of Sus scrofa with 4 samples.

Results

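The genes described here encode core proteins of the spliceosome and the RNA-binding proteins that steer it, in fibroblasts grown from pig skin wounds. They were chosen by gene symbol: every probeset of the array with a single symbol starting SRSF, SFRS, SNRP, HNRNP, HNRP, SF3, PRPF, LSM or U2AF, each gene being read by its brightest probeset. This gave 62 genes of the 6765 with a single symbol, and 61 of them lay above the limit for dim probesets, of 5272 genes that did. The remaining one, U2AF2, a subunit of the factor that binds the polypyrimidine tract before an exon, had signals of 23.6 and 24.4 in deep cultures and 23.4 and 23.6 in shallow cultures, and was left out of the test.

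The cells were dermal fibroblasts cultured from wounds on the backs of Duroc pigs, biopsied 20 weeks after wounding and grown to confluence before total RNA was taken. There were 2 arrays of deep wounds and 2 arrays of shallow wounds, each hybridized to a porcine Affymetrix array, and the comparison of interest was wound depth. Both depths were sampled on each of 2 pigs. The assignment of a deep and a shallow culture to the same animal rests on reading the sample numbers in the titles in the order of listing. The labels give no age, sex or passage number, and no group was left without a wound. Signals are MAS5 intensities on a linear scale, scaled by the authors to a common level, so they compare 1 probeset between arrays and not different probesets with each other.

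Introns are removed by the spliceosome, which assembles anew on each intron from small nuclear ribonucleoproteins (snRNPs), particles of a short RNA wrapped by a ring of Sm or LSM proteins. SR proteins bind exons and generally promote the use of nearby splice sites, while heterogeneous nuclear ribonucleoproteins (hnRNPs) coat nascent transcripts and often oppose them. Both kinds of regulator help to set which exons a cell includes, and dermal fibroblasts use them for transcripts such as that of fibronectin, whose extra domains are spliced in during wound healing.

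The shallow array of pig 1 stood apart from the other 3. The summed signal of 11 epithelial markers was 371 and 219 in deep cultures, against 6258 on the shallow array of pig 1 and 297 on that of pig 2. CDH1, the cadherin of epithelial junctions, read 17.7 and 7.15 in deep cultures, against 1084 and 10.7 in shallow cultures. The summed signal of 15 cell-cycle genes was 2609 and 2926 in deep cultures, against 15501 and 5456 in shallow cultures. All 13 fibroblast markers with a probeset were higher on both deep arrays than on both shallow arrays, against 23.7% of all named genes. Their sums were 66235 and 91742 in deep cultures, against 38186 and 47180 in shallow cultures. Summed smooth muscle and pericyte markers were 4780 and 3450 in deep cultures, against 719 and 1190 in shallow cultures. Most of that sum was ACTG2, at 4269 and 2914 in deep cultures, against 492 and 717 in shallow cultures. Of the 5 markers past the limit for dim probesets, 2 were higher on both deep arrays, or 40%, against 23.7% of all named genes. RGS5, MCAM and HIGD1B overlapped. Endothelial markers summed to 318 and 374 in deep cultures, against 739 and 249 in shallow cultures, and leukocyte markers to 86.9 and 116 in deep cultures, against 140 and 97.7 in shallow cultures. CDH5, the cadherin of endothelial cells, was dimmer on all 4 arrays than the brightest probeset for transcripts that pig cells lack. KDR and TEK were too, while CLDN5 and VWF exceeded that control on some arrays. PECAM1 exceeded it on all 4, with 223 and 281 in deep cultures, against 601 and 152 in shallow cultures. The ratio of 3′ to 5′ probesets for actin, a measure of how much of the transcript was copied, was 3.28 and 6.10 in deep cultures, against 1.96 and 2.41 in shallow cultures. The part of these differences in the results that follow was not tested. In a culture read as a whole, fewer cells of a type and less RNA per cell cannot be told apart.

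Most splicing factor genes had lower signal in the deep cultures, and none passed the test across the array. Of the 61 genes, 0 passed an adjusted p of 0.05 in limma with the pig as a block, and the smallest adjusted p was 0.102, where 0.34% of the 14399 probesets tested passed in either direction (0.236% higher and 0.104% lower in deep). By the mean of the log2 differences 50 genes were lower and 11 higher in deep cultures, against 51.9% of all probesets lower. Both deep arrays lay below both shallow arrays for 36 genes, or 59.0%, where the share was 25.5% of all probesets and 28.4% of all named genes. The reverse order, both deep arrays above both shallow arrays, was seen for 2 genes, LSM14A and SNRPN, where the share over all probesets was 23.2%. An unadjusted p under 0.05 was reached by 11 genes lower in deep, or 18.0%, and by 0 genes higher in deep, against 6.92% and 6.94% of all probesets. The median log2 difference, deep minus shallow, was -0.38 over the 61 genes, with single genes between -1.48 and 0.39, while it was -0.02 over all probesets and -0.04 over all named genes. The standard error of 1 gene's difference had a median of 0.287 and a range of 0.263 to 0.401, so a difference of the median size was little larger than its own error. Over all named genes, 53.6% were lower by the mean, 23.7% were above on both deep arrays without overlap, and 8.06% and 7.4% reached an unadjusted p under 0.05 lower and higher in deep. The p-values rest on how far the difference between depths varied between the 2 pigs, and mostly on a spread borrowed from all probesets. So small a number of arrays limits how precise they are.

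**Figure D1:**
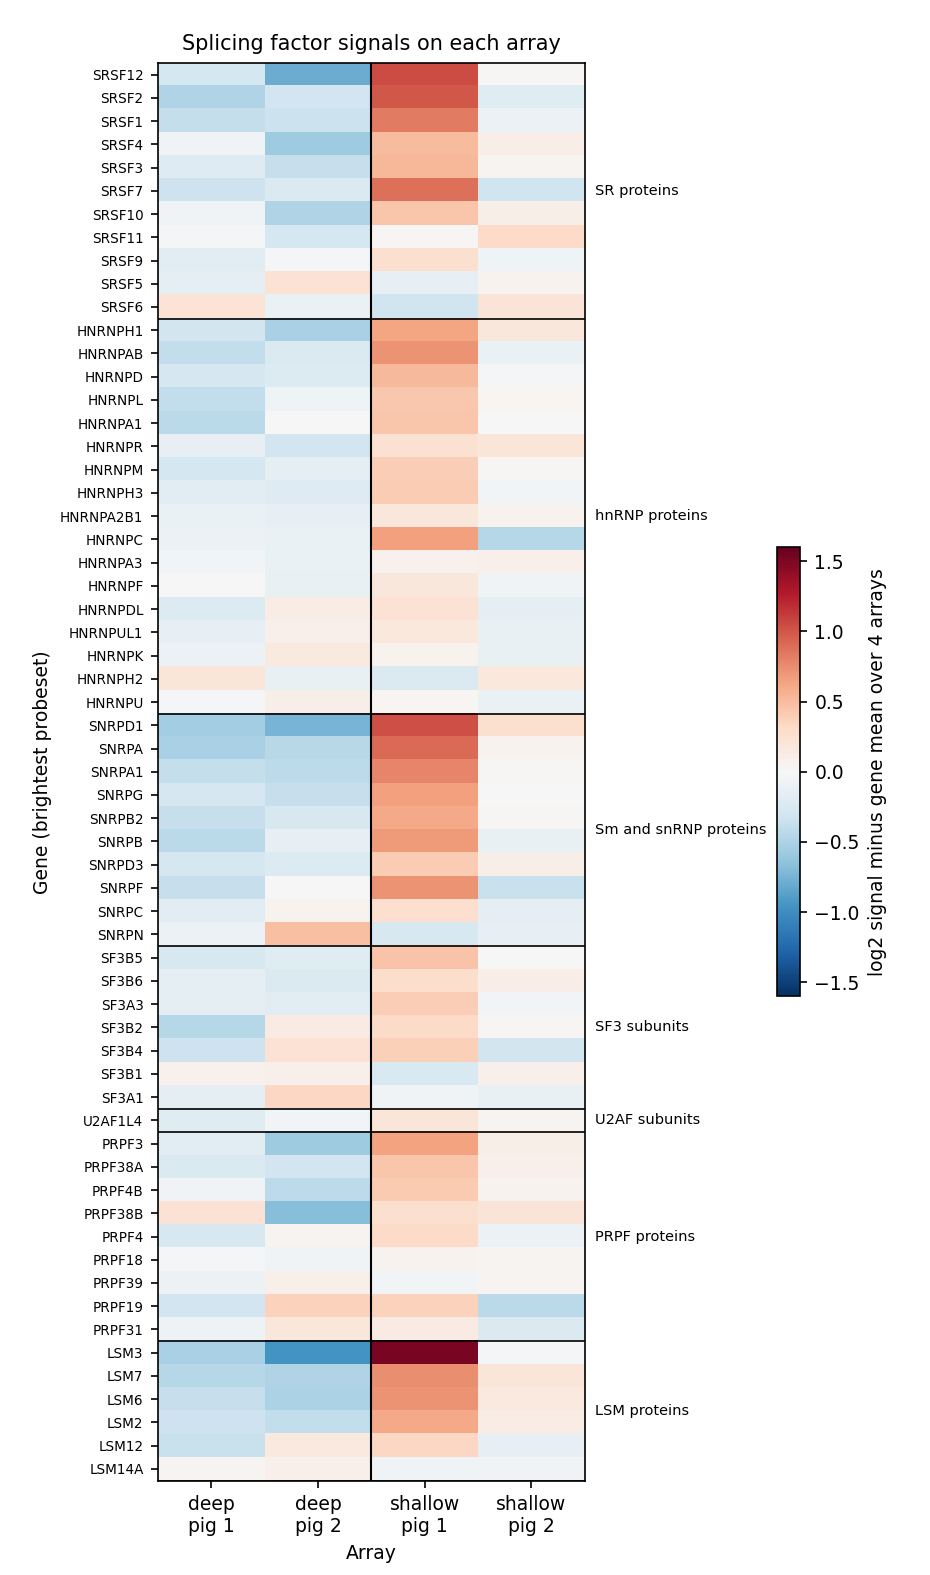
Log2 signal of each of the 61 genes (rows, by family) on each array (columns, both deep arrays first), centred on the gene's mean over the 4 arrays. The shallow array of pig 1 is the highest of the 4 for 48 genes.

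The gene families differed in how far they leaned. The median log2 difference was -0.81 over 6 LSM proteins, -0.60 over 10 Sm and snRNP proteins and -0.56 over 11 SR proteins. It was -0.33 over 7 SF3 subunits, -0.23 over 17 hnRNPs and -0.21 over 9 PRPF proteins. Differences between these medians were not tested.

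**Figure D2:**
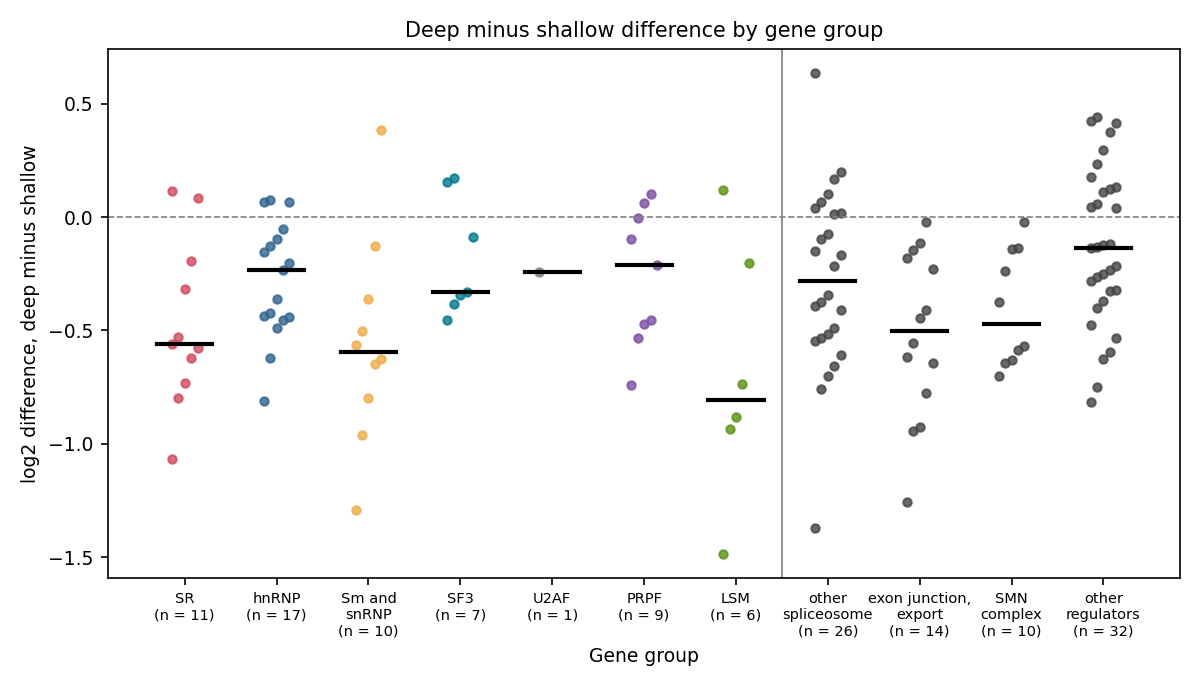
Log2 difference, deep minus shallow, for every gene, by family (left of the vertical line) and by other RNA-processing list (right of it), each point a gene and each bar a median. Left of the line, LSM3 at -1.48 and SNRPD1 at -1.29 are the lowest points and SNRPN at 0.39 is the highest.

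Sm proteins form the ring that wraps the RNA of most spliceosomal particles. Of the 7 ring subunits 5 had a measured probeset, and all 5 had lower mean log2 signal in deep cultures. Both deep arrays lay below both shallow arrays for 4, or 80%, against 28.4% of all named genes. SNRPD1, one of these subunits, read 1237 and 1083 in deep cultures, against 3705 and 2171 in shallow cultures. The groups did not overlap, and the log2 difference was -1.29 ± 0.28 (SE, n = 2 pigs; limma adjusted p = 0.102), the smallest adjusted p of all the splicing factor genes. SNRPD3, another subunit of the ring, read 1989 and 2085 in deep cultures, against 3219 and 2590 in shallow cultures, a log2 difference of -0.50 ± 0.28 (limma adjusted p = 0.466). SNRPG had signals of 1654 and 1543 in deep cultures, against 3151 and 1986 in shallow cultures. SNRPF alone of the 5 overlapped, with 141 and 184 in deep cultures, against 302 and 143 in shallow cultures.

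Proteins particular to the U1 and U2 particles, which mark the 5′ splice site and the branch point, were mostly lower too. SNRPA, a U1 protein, read 104 and 109 in deep cultures, against 277 and 155 in shallow cultures, a log2 difference of -0.96 ± 0.36 (limma adjusted p = 0.288). SNRPA1, a U2 protein, read 680 and 663 in deep cultures, against 1518 and 901 in shallow cultures, and its U2 partner SNRPB2 read 514 and 552 in deep cultures, against 1009 and 670 in shallow cultures. None of these 3 genes overlapped between the depths. SNRPC, the U1 protein that helps to recognise the 5′ splice site, did overlap, with 1109 and 1302 in deep cultures, against 1513 and 1136 in shallow cultures.

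SNRPN had the highest log2 difference of the 61 genes. It encodes an Sm protein closely related to SNRPB, and in human and mouse it is an imprinted gene. It read 648 and 961 in deep cultures, against 579 and 631 in shallow cultures. Both deep arrays were above both shallow arrays, the log2 difference was 0.39 ± 0.28 (95% interval -0.25 to 1.02; limma adjusted p = 0.589), and its second probeset had the same order with 282 and 359 in deep cultures, against 236 and 224 in shallow cultures. With the actin ratio as a covariate and no block its difference had the opposite sign, at -0.25. That ratio was higher on both deep arrays than on both shallow arrays, so this fit separates it poorly from depth. SNRPB itself read 486 and 596 in deep cultures, against 1054 and 602 in shallow cultures, so its deep culture of pig 2 and its shallow culture of pig 2 were nearly level.

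LSM proteins form the ring of the U6 particle and, in the cytoplasm, a related ring that takes part in mRNA decay. The 4 measured ring proteins, LSM2, LSM3, LSM6 and LSM7, all had both deep arrays below both shallow arrays and an unadjusted p under 0.05. Over all named genes 28.4% had that order of arrays, and 8.06% had that p lower in deep. None of the 4 passed an adjusted p of 0.05. LSM3 showed the lowest log2 difference of all the splicing factor genes: it read 236 and 174 in deep cultures, against 968 and 332 in shallow cultures, a difference of -1.48 ± 0.34 (95% interval -2.28 to -0.69; limma adjusted p = 0.119). LSM7 read 169 and 165 in deep cultures, against 386 and 265 in shallow cultures, a log2 difference of -0.94 ± 0.31 (limma adjusted p = 0.236). LSM6 read 145 and 132 in deep cultures, against 309 and 210 in shallow cultures, a log2 difference of -0.88 ± 0.31 (limma adjusted p = 0.268). LSM2 had signals of 465 and 446 in deep cultures, against 898 and 641 in shallow cultures. In each of these 4 genes the shallow culture of pig 1 was the highest and that of pig 2 came next.

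The LSM proteins outside these rings did not share the pattern. LSM14A, which acts in the storage and silencing of cytoplasmic mRNA, read 1558 and 1594 in deep cultures, against 1453 and 1452 in shallow cultures. Its groups did not overlap, but the log2 difference was only 0.12 ± 0.26 (95% interval -0.49 to 0.73; limma adjusted p = 0.886). LSM12 read 188 and 267 in deep cultures, against 302 and 220 in shallow cultures, and overlapped.

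**Figure D3:**
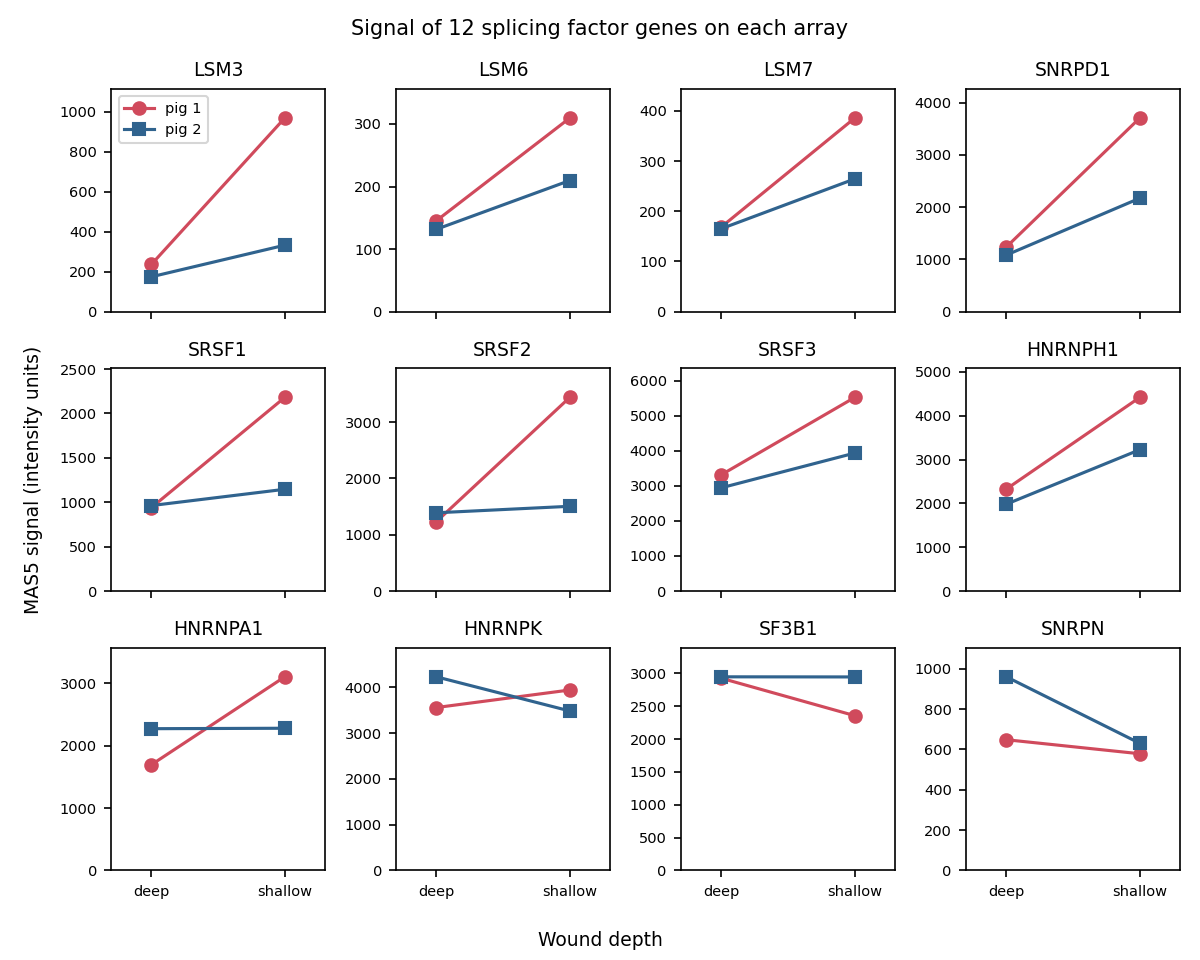
MAS5 signal (linear axis from 0, its own scale in each panel) of 12 splicing factor genes, with the deep arrays left of the shallow arrays and a line joining the arrays of a pig. LSM3 and SNRPD1 are lower on both deep arrays, while SNRPN is higher on both.

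SR proteins bind exonic enhancers through RNA recognition motifs and recruit the splicing machinery through a domain rich in arginine and serine. Of 11 measured, 9 had lower mean log2 signal in deep cultures. Both deep arrays lay below both shallow arrays for 7, or 63.6%, against 28.4% of all named genes. SRSF1, which can switch the choice between alternative 5′ splice sites, read 939 and 962 in deep cultures, against 2180 and 1146 in shallow cultures, a log2 difference of -0.73 ± 0.31 (limma adjusted p = 0.355). SRSF2 read 1232 and 1390 in deep cultures, against 3439 and 1505 in shallow cultures, a log2 difference of -0.80 ± 0.36 (limma adjusted p = 0.38). SRSF3, the smallest of the classical SR proteins, read 3319 and 2947 in deep cultures, against 5525 and 3937 in shallow cultures, a log2 difference of -0.58 ± 0.28 (95% interval -1.22 to 0.07; limma adjusted p = 0.415). In all 3 the groups did not overlap, and the gap between the shallow cultures was larger than the gap between the depths in pig 2.

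The lowest SR protein was a dim one. SRSF12, an SR-related protein that can repress splicing, read 55.0 and 38.6 in deep cultures, against 138 and 67.7 in shallow cultures, a log2 difference of -1.07 ± 0.39 (95% interval -1.97 to -0.16; limma adjusted p = 0.28). SRSF4 read 487 and 342 in deep cultures, against 722 and 546 in shallow cultures. SRSF7 read 1112 and 1185 in deep cultures, against 2570 and 1114 in shallow cultures, so it was high only on the shallow array of pig 1. SRSF5 and SRSF6 were the 2 with a positive mean difference: SRSF5 read 811 and 1046 in deep cultures, against 814 and 927 in shallow cultures, and SRSF6 read 2367 and 1878 in deep cultures, against 1624 and 2342 in shallow cultures. For SRSF6 the 95% interval of the log2 difference, -0.59 to 0.82, left room for a difference either way. Its other probesets had differences of both signs, from -0.22 to 0.35.

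The hnRNPs lay closer to 0. Of 17 measured, 14 had lower mean log2 signal in deep cultures. Both deep arrays lay below both shallow arrays for 10, or 58.8%, against 28.4% of all named genes. Only 1, or 5.88%, reached an unadjusted p under 0.05 lower in deep, where 8.06% of all named genes did. That gene was HNRNPH1, whose product binds runs of G near splice sites: it read 2326 and 1981 in deep cultures, against 4416 and 3223 in shallow cultures, a log2 difference of -0.81 ± 0.27 (95% interval -1.44 to -0.19; limma adjusted p = 0.24). Its close relative HNRNPH2 did not share this, with 1142 and 921 in deep cultures, against 851 and 1127 in shallow cultures. HNRNPA1, a long-studied antagonist of SRSF1 in the choice of splice sites, read 1693 and 2271 in deep cultures, against 3102 and 2278 in shallow cultures, a log2 difference of -0.44 ± 0.31 (limma adjusted p = 0.575). Its deep and shallow cultures of pig 2 were level.

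Further hnRNPs had mean differences nearer to 0 than that of HNRNPA1. HNRNPA2B1 read 4731 and 4668 in deep cultures, against 5762 and 5293 in shallow cultures, a log2 difference of -0.23 ± 0.28 (limma adjusted p = 0.772). HNRNPC, which guards introns against cryptic splicing by binding runs of U, read 1530 and 1522 in deep cultures, against 2585 and 1196 in shallow cultures, and lay between the shallow cultures, with a 95% interval of -0.96 to 0.55 for the log2 difference. HNRNPK, which binds runs of C, read 3557 and 4228 in deep cultures, against 3940 and 3482 in shallow cultures, with a 95% interval of -0.59 to 0.72 for the log2 difference. HNRNPU, a nuclear scaffold protein, read 104 and 113 in deep cultures, against 108 and 98.2 in shallow cultures, with a 95% interval of -0.72 to 0.87. These intervals do not show that the last 3 genes were level between the depths.

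SF3 proteins belong to the part of the U2 particle that holds the branch point. Of 7 measured, 5 had lower mean log2 signal in deep cultures. Both deep arrays lay below both shallow arrays for 3, or 42.9%, against 28.4% of all named genes. An unadjusted p under 0.05 was reached by 0, where 8.06% of all named genes reached it lower in deep. SF3B5, a small subunit of SF3b, read 780 and 814 in deep cultures, against 1285 and 931 in shallow cultures, a log2 difference of -0.46 ± 0.28 (limma adjusted p = 0.52). The large scaffold SF3B1, a splicing factor often mutated in human blood cancers, read 2925 and 2947 in deep cultures, against 2356 and 2945 in shallow cultures, a log2 difference of 0.16 ± 0.27 (95% interval -0.48 to 0.79; limma adjusted p = 0.845). SF3A1 read 246 and 343 in deep cultures, against 264 and 252 in shallow cultures, a log2 difference of 0.17 ± 0.30 (limma adjusted p = 0.846). Subunits of the same particle therefore had differences of both signs, and none passed the test. U2AF1L4, a relative of the small U2AF subunit that reads the end of the intron, read 114 and 127 in deep cultures, against 150 and 135 in shallow cultures, a log2 difference of -0.24 ± 0.33 (limma adjusted p = 0.80). Probesets of U2AF1, PRPF8 and LSM1 were not analysed here.

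PRPF proteins act mainly in the particle of U4, U6 and U5 and in the activation of the assembled spliceosome. Of 9 measured, 7 had lower mean log2 signal in deep cultures. Both deep arrays lay below both shallow arrays for 4, or 44.4%, against 28.4% of all named genes. An unadjusted p under 0.05 lower in deep was reached by 1, or 11.1%, against 8.06% of all named genes. PRPF3, a protein of the U4 and U6 particle, read 194 and 147 in deep cultures, against 342 and 232 in shallow cultures, a log2 difference of -0.74 ± 0.30 (limma adjusted p = 0.329). PRPF31, which holds the same particle together, overlapped between the depths, with 188 and 226 in deep cultures, against 218 and 170 in shallow cultures and a log2 difference of 0.10 ± 0.32 (limma adjusted p = 0.927). PRPF4B, a kinase of this particle, read 636 and 493 in deep cultures, against 878 and 686 in shallow cultures, a log2 difference of -0.47 ± 0.27 (limma adjusted p = 0.481). PRPF19, a ubiquitin ligase of the activated spliceosome, read 470 and 750 in deep cultures, against 752 and 429 in shallow cultures, and so ran in opposite directions in the pigs.

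The lean towards lower signal was larger in pig 1. The median log2 difference of the 61 genes was -0.68 in pig 1 and -0.16 in pig 2. It was lower in deep in both pigs for 38 genes, higher in both for 3, and of opposite sign for 20, or 32.8%, where 38.6% of all probesets and 36.0% of all named genes had opposite signs. The shallow array of pig 1 was the highest of the 4 for 48 genes, or 78.7%, against 32.3% of all probesets and 37.3% of all named genes. The shallow arrays differed by a median of 0.40 on the log2 scale, pig 1 minus pig 2, while the deep arrays differed by -0.04. Differences of at least 1.5-fold in both pigs were seen for 7 genes, all lower in deep: HNRNPH1, LSM3, LSM6, LSM7, PRPF3, SNRPD1 and SRSF12. That is 11.5% of the 61 genes, against 5.53% of all probesets and 5.86% of all named genes, and 0 genes were as much higher in both pigs, against 6.29%. Across the 61 genes the differences in pig 1 and in pig 2 had a Pearson correlation of 0.364 and a Spearman correlation of 0.345, a description of genes that share arrays and scaling. The correlation of a gene's difference with its mean log2 signal was 0.116.

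**Figure D4:**
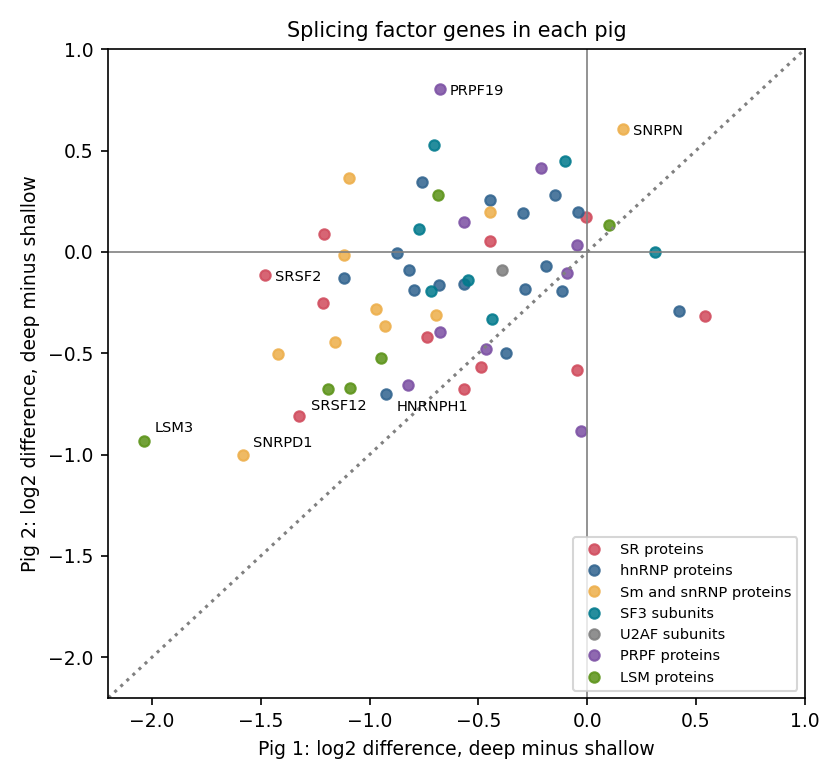
Log2 difference, deep minus shallow, in pig 2 (vertical axis) against pig 1 (horizontal axis) for the 61 genes. Of these, 38 are lower in the deep cultures of both pigs and 3 are higher in both.

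Without the shallow array of pig 1 the difference was smaller but had the same direction for most genes. Both deep arrays lay below the shallow array of pig 2 for 36 of the 61 genes, or 59.0%, against 38.1% of all probesets and 38.6% of all named genes, and 46 genes were lower by the mean. Both deep arrays lay below the shallow array of pig 1 for 50 genes, against 39.0% of all probesets and 43.0% of all named genes. The median log2 difference was -0.18 in the fit without the shallow array of pig 1. SNRPD1 stood at -0.91 and LSM3 at -0.71 without that array, while SRSF1 stood at -0.27 and SRSF2 at -0.20. Without the shallow array of pig 2, the median was -0.59 and 14 genes, or 23.0%, passed an adjusted p of 0.05 in limma, where 5.99% of all probesets passed lower and 5.1% higher in deep. All 14 were lower in deep: HNRNPAB, LSM2, LSM3, LSM6, LSM7, SNRPA, SNRPA1, SNRPB, SNRPB2, SNRPD1, SRSF1, SRSF2, SRSF7 and SRSF12. These 14 calls therefore rested on a comparison with the shallow array of pig 1 alone, whose spread was taken to be that of the deep arrays.

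Probesets of a gene did not always agree. For 21 genes there were 35 further probesets, 30 of them bright enough to test, and 19 of the 30 had the sign of the gene's brightest probeset. SRSF1 had a second probeset much like the first, with 615 and 656 in deep cultures, against 1495 and 728 in shallow cultures, and another that differed, with 199 and 472 in deep cultures, against 261 and 214 in shallow cultures. For HNRNPA2B1 the dimmer probesets ran against the brightest: one read 585 and 517 in deep cultures, against 256 and 503 in shallow cultures. The second HNRNPK probeset read 2300 and 2095 in deep cultures, against 3067 and 2788 in shallow cultures, without overlap, whereas the brightest overlapped. HNRNPH2 had a second probeset at 339 and 262 in deep cultures, against 98.3 and 272 in shallow cultures. For SRSF1, HNRNPA2B1, HNRNPK and SRSF6, among others, the direction therefore depends on the probeset, while both HNRNPH2 probesets had a positive mean difference. Probe sequences were not used here, so neither the transcripts read by each probeset nor reads across related genes were examined.

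Other genes of RNA processing gave 0 calls as well. All 14 measured genes of the exon junction complex and mRNA export had lower mean log2 signal in deep cultures. The median log2 difference was -0.50. Both deep arrays lay below both shallow arrays for 9, or 64.3%, against 28.4% of all named genes. DDX39A, a helicase of mRNA export, read 441 and 490 in deep cultures, against 1605 and 769 in shallow cultures, a log2 difference of -1.26 ± 0.34 (limma adjusted p = 0.169). Its close relative DDX39B read 61.3 and 57.8 in deep cultures, against 179 and 73.4 in shallow cultures. MAGOH, a core protein of the exon junction complex, read 746 and 547 in deep cultures, against 1238 and 964 in shallow cultures, and its copy MAGOHB read 405 and 434 in deep cultures, against 1239 and 511 in shallow cultures. None of these 4 genes overlapped between the depths. All 10 measured genes of the SMN complex and snRNP assembly were lower by the mean too, with a median of -0.47. Without overlap 7 were lower, or 70%, against the 28.4% of all named genes. Among them PRMT5, which methylates Sm proteins before the ring is built, read 314 and 259 in deep cultures, against 602 and 356 in shallow cultures, and SMN1, the assembly chaperone, read 465 and 351 in deep cultures, against 777 and 503 in shallow cultures.

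Among 26 other spliceosome proteins 18 were lower by the mean, with a median log2 difference of -0.28. Without overlap 14 were lower, or 53.8%, against 28.4% of all named genes. PPIH, a cyclophilin of the U4 and U6 particle, read 191 and 200 in deep cultures, against 406 and 268 in shallow cultures. SART1, a protein of the U4, U6 and U5 particle, had the largest log2 difference of this list, -1.37 ± 0.43 (limma adjusted p = 0.221), with 29.6 and 22.4 in deep cultures, against 75.4 and 59.0 in shallow cultures. On the deep array of pig 2 this was dimmer than the brightest probeset for transcripts that pig cells lack, at 30.9. SLU7, which acts in the later catalytic step of splicing, was the exception without overlap on the other side, with 551 and 667 in deep cultures, against 320 and 476 in shallow cultures. Its log2 difference was 0.63 ± 0.28 (limma adjusted p = 0.362). The 32 other splicing regulators leaned least, with 19 lower and 13 higher by the mean, 10 below and 6 above without overlap, and a median of -0.13. Those without overlap were 31.3% below and 18.8% above, near the 28.4% and 23.7% of all named genes. RBMX, an hnRNP with a different symbol, read 347 and 360 in deep cultures, against 887 and 438 in shallow cultures, and SYNCRIP, another hnRNP, read 869 and 706 in deep cultures, against 1580 and 1099 in shallow cultures. YBX1, a protein that packages mRNA, read 7333 and 10417 in deep cultures, against 6034 and 7025 in shallow cultures.

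ESRP1, a splicing regulator of epithelial cells, read 14.1 and 1.91 in deep cultures, against 331 and 8.66 in shallow cultures, and only on the shallow array of pig 1 did it exceed that brightest control. The cell-cycle genes had a median log2 difference of -2.15 over 15 measured, with -3.37 in pig 1 and -1.03 in pig 2. Both deep arrays lay below both shallow arrays for all 15, against 28.4% of all named genes. In limma 0 passed an adjusted p of 0.05. An unadjusted p under 0.05 was reached by 14, lower in deep, against 8.06% of all named genes. TOP2A, the topoisomerase of dividing cells, read 174 and 351 in deep cultures, against 1979 and 606 in shallow cultures. On values centred on each gene's mean, the splicing factor genes and the cell-cycle genes had the same order of arrays at the top, the shallow culture of pig 1 and then that of pig 2. For the splicing factor genes the medians were -0.20 and -0.14 in deep cultures, against 0.40 and 0.02 in shallow cultures. For the cell-cycle genes they were -1.29 and -0.93 in deep cultures, against 2.00 and 0.24 in shallow cultures. The part of dividing cells in the splicing factor values was not tested.

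**Figure D5:**
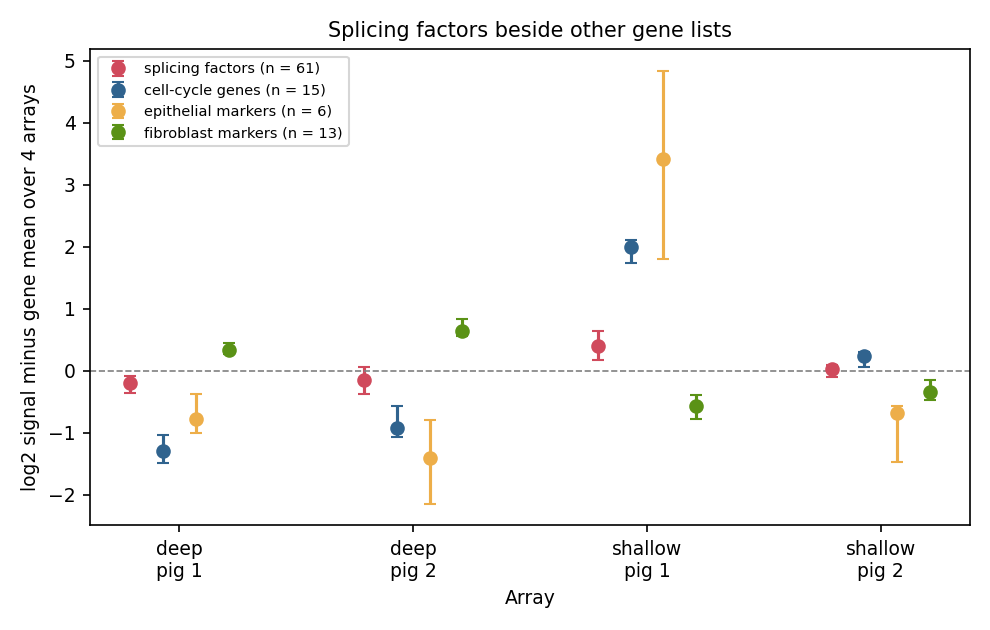
Median log2 signal of each gene list on each array, centred on each gene's mean over the 4 arrays, with the deep arrays left of the shallow arrays and bars over the middle 50% of the genes. Splicing factor genes, cell-cycle genes and epithelial markers are highest on the shallow array of pig 1, at 0.40, 2.00 and 3.41, where fibroblast markers are at -0.58. The 6 epithelial markers are those past the limit for dim probesets, which CDH1, EPCAM and SFN passed through their signal on that array. The epithelial value there was therefore partly set by that limit.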

How the data were processed

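The values deposited by the authors are MAS5 signal intensities, linear and not logged, from GCOS 1.0 and MAS5 per the submitters' processing notes. Leaving out the extreme values, each array averaged 250.1, and the scaling target was not given in the sources used here. Detection calls were not used here. Signals were set instead beside 23 control probesets for transcripts that pig cells lack, of which the brightest lay between 13.6 and 30.9 by array.

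The 124 control probesets were removed, and signals under 1 (2547 of 95996) were raised to 1 before log2. Probesets in the dimmest 40% by mean log2, under a signal of 27.1, were dropped, so that 14399 of 23999 entered the fit. Deep was compared with shallow in limma 3.58.1 (R 4.3.3; lmFit, eBayes with trend), each pig forming a block, with Benjamini-Hochberg adjustment across the 14399. Every difference is deep minus shallow, and intervals are this fit's 95% intervals. There was 1 residual degree of freedom, and moderation contributed 6.88 more. The pairing comes from the design. In the data, the deviations of a pig's arrays correlated at -0.01. The platform annotation supplied names, with a single symbol for 10069 probesets.

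The members, gene lists, markers and tests were chosen with earlier results of these data known. Genes named by rule were, in each family, the brightest and those with the highest and lowest difference, those past 1.5-fold one way in both pigs, a set of well-known genes where they had a probeset, and up to 4 with the largest absolute difference in each other RNA-processing list. Others, SLU7 and YBX1 among them, were named after their values were seen. The alternatives were the block, the pairing, the pseudocount, the filter, the normalization, the actin ratio as a covariate, the trend, the mean of a gene's probesets, and leaving out each array.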

Additional observations from a re-analysis of the deposited data

How the results depend on the processing

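With the pig as a replicate block, 34 probesets passed an adjusted p of 0.05 higher in deep and 15 lower, and 0 of 61 splicing factor genes did, although 11 were lower at an unadjusted p under 0.05. Higher and lower calls were 0 and 0 with no replicate block, 119 and 83 with the crossed pairing, 69 and 31 with a pseudocount of 16, 0 and 0 without the filter, 66 and 30 after quantile normalization, 5 and 0 with each array centred on its median, 0 and 0 with the actin ratio as a covariate, and 2 and 1 without the trend. With the mean of a gene's probesets they were 50 and 22. The cause was not tested. Under these 9 alternatives, 0 splicing factor genes passed in either direction, and between 0 and 15 were lower at an unadjusted p under 0.05.

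Leaving out 1 array moved the calls between 0 and 735 higher and between 0 and 862 lower over all probesets, and between 0 and 14 lower among the splicing factor genes, with 14 when shallow replicate 2 was left out. These fits have no block and take the lone array to vary like the other depth. The splicing factor genes with both deep arrays above both shallow arrays were 2, where the share of all probesets was 23.2%. There were 4 with median centring, against 27.3%, and 4 with the mean of probesets, against 23.1%. With 1 array left out, the remaining deep arrays lay above the remaining shallow arrays for between 4 and 9, against 32.0% to 39.2%. The reverse order held for 36 genes, against 25.5%, and for 33 with median centring, against 21.3%. With the mean of probesets it held for 33, against 25.6%. With 1 array left out it held for between 36 and 50, against 37.3% to 40.1%. The median log2 difference stayed below 0 under all 13 alternatives, between -0.59 and -0.18.

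Of all 61 splicing factor genes, 37 kept their sign under all 13 alternatives and 24 changed it under at least 1, and the largest of those 24 differences was that of SRSF4, -0.62 with the pig as a block. Among these, 9 were named by rule. With the actin ratio as a covariate the log2 difference was 0.19 for HNRNPC, -0.13 for HNRNPK, -0.055 for PRPF31, 0.040 for PRPF4B, -0.31 for SF3A1 and -0.25 for SNRPN. The actin ratio was higher on both deep arrays, so that fit separates it poorly from depth. With the mean of probesets it was 0.33 for HNRNPA2B1 and -0.17 for HNRNPK, and after quantile normalization -0.15 for HNRNPK. With 1 array left out it lay between -0.76 and 0.35 for HNRNPC, -0.058 and 0.19 for HNRNPK, -0.080 and 0.28 for PRPF31, -0.068 and 0.41 for SF3A1, -0.0045 and 0.32 for SF3B1, and -0.15 and 0.38 for SRSF6. The other 15 of the 24 are HNRNPDL, HNRNPF, HNRNPH2, HNRNPUL1, LSM12, PRPF19, PRPF38B, PRPF39, SF3B4, SNRPC, SNRPF, SRSF4, SRSF5, SRSF7 and SRSF10. Of 325 values for the 25 genes named by rule under 13 alternatives, 18 changed sign and 300 kept direction and side of the threshold.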
